A study of Homo sapiens with 6 samples.

Results

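The interferon-induced transmembrane genes Ifitm1, Ifitm2 and Ifitm3 were followed through 6 RNA-seq libraries, 2 in each of the groups labelled NC, sh1 and sh4. They were picked by gene ID, as 3 of the 54532 IDs listed in every file: ENSMUSG00000025491 (Ifitm1), ENSMUSG00000060591 (Ifitm2) and ENSMUSG00000025492 (Ifitm3). The choice followed earlier results of the same libraries, in which Ifitm1 stood out in sh1 and sh4 against NC. Levels against NC are therefore given as a description, with no test. Per the labels, all libraries are from A549, an established epithelial cell line derived from a human lung adenocarcinoma. The title names DSTY as the knockdown target, and no label states what NC, sh1 or sh4 stands for, which vector was used, or whether the libraries of a group are separate cultures. The p-values below thus rest only on the spread between these libraries, which may be technical. That spread is pooled over the groups, NC included, and is moderated across the IDs tested. Reading sh1 and sh4 as knockdown groups and NC as their control is an assumption from the title and design text.

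The gene IDs do not match the labelled organism. All 54532 carry the prefix that Ensembl uses for mouse genes, while the cells are labelled human, and 0 of them were found in the human gene name table. The files hold no gene names, and the names used here are those under which Ensembl lists the 3 IDs in mouse. The IDs are thus those of a mouse annotation, whose release is not stated. Which organism's RNA lies behind the values is unresolved, so the genes are named as their IDs stand and no coordinates are given. The knockdown target, epithelial markers and other interferon-induced genes were not analysed here.

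IFITM proteins are small membrane proteins, modified by palmitoylation, that hinder enveloped viruses from fusing with the cell's membranes. IFITM3 and IFITM2 act mostly in late endosomes and lysosomes, while IFITM1 sits largely at the cell surface. Their genes lie side by side in a cluster and are classical targets of interferons, with IFITM3 being well known for restricting influenza virus in the airway. Because the family members resemble each other in sequence, a read can fit more than 1 of them. How the authors' counting treated such reads is not given in the sources used here, so the level of each single gene is uncertain to that extent.

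Levels are in FPKM, fragments per kilobase of gene scaled to depth, which allows genes of different length to be compared. Whole reads and gene lengths were recovered from the values, with 14999784 to 18011797 reads per library and 11826 to 11972 IDs at 1 FPKM or more. The gene lengths used by the authors came out at 678 bp for Ifitm3, 655 bp for Ifitm2 and 1094 bp for Ifitm1. In bulk RNA, fewer cells expressing a gene and less of its RNA per cell cannot be told apart.

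Ifitm3, the endosomal restriction factor, was the most abundant of the 3 genes in every library. Its level was 141 and 138 FPKM in the NC libraries, from 1514 and 1438 reads. Libraries of sh1 had 582 and 620.4 FPKM. Those of sh4 had 339 and 322 FPKM. Both sh1 libraries were the highest, both NC libraries the lowest, and no groups overlapped. Such separation was common among the 12755 IDs tested. Both sh1 libraries lay above both NC libraries for 40.5% of them, and both sh4 libraries for 41.8%. Both sh4 libraries lay below both sh1 libraries for 38.2%. The share of IDs with the whole order was not computed, here or for the other members. Ranked by FPKM among all IDs, Ifitm3 stood at places 280 and 273 in NC, 81 and 73 in sh1, and 120 in both sh4 libraries. The group means were 139.9 ± 2.2 FPKM for NC, 601.0 ± 27.5 for sh1 and 330.4 ± 11.6 for sh4 (SD, n = 2 each). The mean was 4.30 times that of NC in sh1 and 2.36 times in sh4. On the log2(FPKM + 1) scale, sh1 exceeded NC by 2.09 and sh4 exceeded NC by 1.23, each with an SE of 0.05. Replicates of sh1 differed by more than counting error, since their 95% Poisson intervals ran from 568 to 596 FPKM and from 606 to 635 FPKM. Such intervals cover counting error only.

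Ifitm2, a close relative of Ifitm3 that also acts in endosomes, had the intermediate level in every library. It was at 35.2 and 39.0 FPKM in NC, where 364 and 392 reads were counted. It was at 268 and 297 FPKM in sh1, and at 161 and 153 FPKM in sh4. The order of the groups was the one seen for Ifitm3, again without overlap. Averaged by group, this made 37.1 ± 2.7 FPKM for NC, 283 ± 20.3 for sh1 and 157 ± 5.6 for sh4 (SD, n = 2 each). Ifitm2 thus reached 7.62 times its NC mean in sh1 and 4.22 times in sh4. The log2 differences from NC were 2.90 in sh1 and 2.05 in sh4 (SE 0.06 for both). In sh1 its level exceeded that of Ifitm3 in NC, and in both sh4 libraries it lay slightly above it.

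Ifitm1, the cell-surface member, was the least abundant in every library and was covered by few reads in NC. The NC libraries held 28 and 15 reads of it, or 1.62 and 0.894 FPKM. Their 95% Poisson intervals, 1.08 to 2.34 FPKM and 0.50 to 1.47 FPKM, overlapped. Levels were 27.0 and 27.4 FPKM in sh1 from 494 and 528 reads, and 18.7 and 19.6 FPKM in sh4 from 377 and 394 reads. All 4 sh1 and sh4 libraries lay far above both NC libraries, and every sh1 library lay above every sh4 library. The ratio to the NC mean was 21.6 in sh1 and 15.2 in sh4. Taken over single pairs of libraries, that ratio ran from 16.7 to 30.6 in sh1 and from 11.5 to 21.9 in sh4, the NC libraries being the ones that differed most between replicates. The log2(FPKM + 1) difference was 3.66 in sh1 and 3.18 in sh4 (SE 0.12 for both), and the added 1 FPKM makes it smaller than the plain ratio of this low gene.

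**Figure D1:**
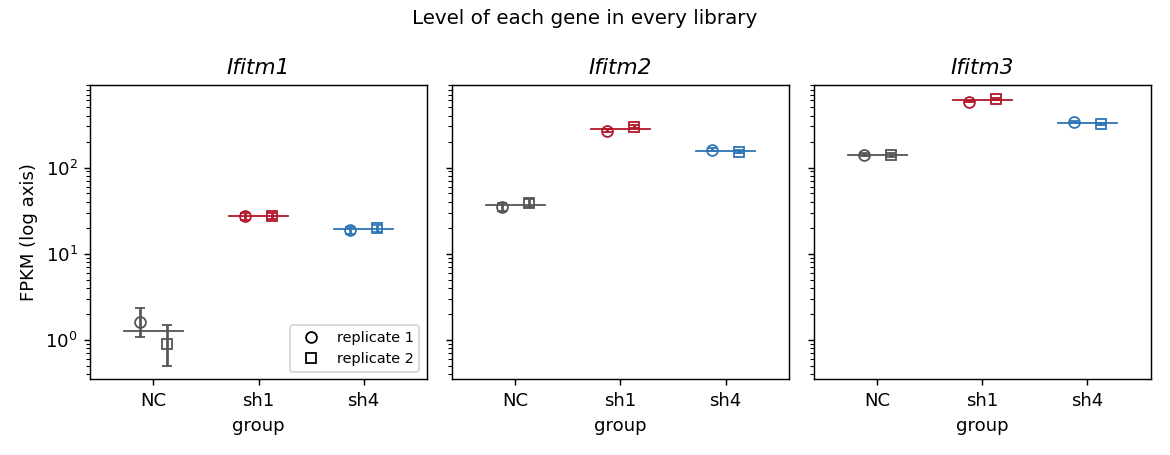
FPKM (log axis) of Ifitm1, Ifitm2 and Ifitm3 in each of the 6 libraries, by group; circles and squares are replicates 1 and 2, error bars are 95% Poisson intervals of the reads, and horizontal lines are group means. For each gene both sh1 libraries are highest, both sh4 libraries are intermediate and both NC libraries are lowest. The share of all IDs with this order was not computed.

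Set side by side, the genes ranked in opposite orders by level and by ratio to NC. Ifitm3 had the highest level and the smallest ratio, and Ifitm1 had the lowest level and the largest ratio, in sh1 as in sh4. Since Ifitm1 standing out against NC led to the choice of the genes, its place in this order is not an independent result. Its ratio also rests on an NC mean of 1.26 FPKM, from 28 and 15 reads. Of the 3 genes, 3 had both sh1 libraries above both NC libraries, as did 40.5% of the 12755 IDs tested, and 3 had both sh4 libraries above both NC libraries, as did 41.8%. All 3 differed from NC by 1 log2 unit or more in sh1, a size reached upwards by 5.91% of IDs, and in sh4, where the share was 5.97%. Because the genes were chosen on these contrasts, nothing is read from these counts. The median difference of the 3 genes was 2.90 in sh1 and 2.05 in sh4, beside -0.01 and 0.01 for all IDs tested. Ifitm1 was among the 14 IDs with the highest difference in sh1 and among the 5 highest in sh4. Ifitm2 was within the highest 36 in sh1 and 65 in sh4, and Ifitm3 within the highest 117 and 443. Both comparisons use the same 2 NC libraries, so a high or low value there moves both.

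**Figure D2:**
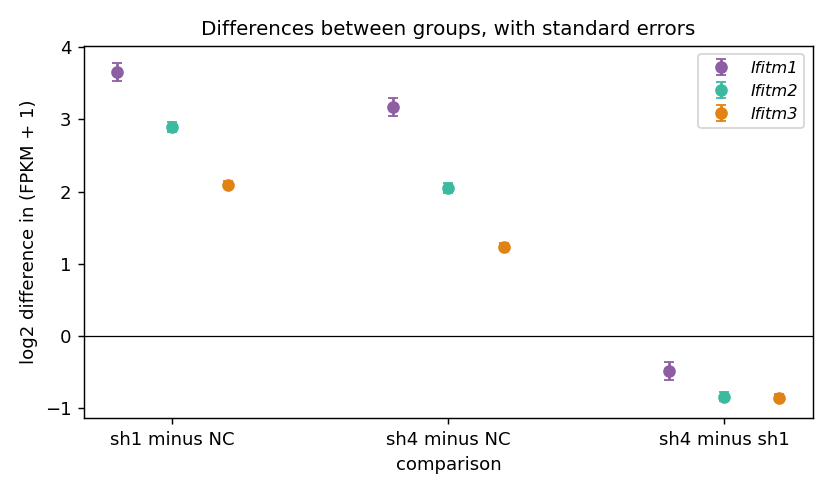
Difference in log2(FPKM + 1) for each gene (colours) in 3 comparisons, with bars of 1 standard error from limma. Against NC the differences run from 1.23 for Ifitm3 in sh4 to 3.66 for Ifitm1 in sh1, and between sh4 and sh1 they are negative for each gene.

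The comparison of sh4 with sh1 asked whether the genes reached the same level in both groups. It leaves out the NC means and was not the contrast on which the genes were chosen, although the same sh1 and sh4 libraries entered that choice. The 3 genes were lower in sh4 than in sh1. Both sh4 libraries lay below both sh1 libraries for each of them, as they did for 38.2% of all IDs tested. The log2 difference of Ifitm3 was -0.86 (SE 0.05, adjusted p = 6.9e-09), a mean of 330.4 FPKM in sh4 beside 601.0 in sh1. That of Ifitm2 was -0.85 (SE 0.06, adjusted p = 1.59e-07), which lies within the standard errors of Ifitm3. For Ifitm1 it was -0.49 (SE 0.12, adjusted p = 0.0044). These are limma tests on log2(FPKM + 1) with Benjamini-Hochberg adjustment over all 12755 IDs, n = 2 against 2. Expressed as a ratio of means, sh1 exceeded sh4 by 1.82 times for Ifitm3, 1.80 times for Ifitm2 and 1.42 times for Ifitm1.

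Such differences were common between these groups. At the same threshold 56.0% of all IDs were called, and 26.4% were called lower in sh4, so 3 of 3 genes called lower has to be read against that share. The median difference of the 3 genes was -0.85, and that of all IDs was 0.01 with a median absolute difference of 0.27. Of the 12755 IDs, 577 were at least as far below sh1 as Ifitm3, 600 as far as Ifitm2 and 1631 as far as Ifitm1. Higher IDs made up 52.8% of the calls with the deposited scaling, 62.1% when libraries were scaled by total reads and 67.0% when they were brought to a common FPKM sum, and the 3 genes were called lower in sh4 under each. The call for Ifitm1 was lost with a pseudocount of 0.1 (-0.51, adjusted p = 0.093) and with no filter on low values (-0.49, adjusted p = 0.11).

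**Figure D3:**
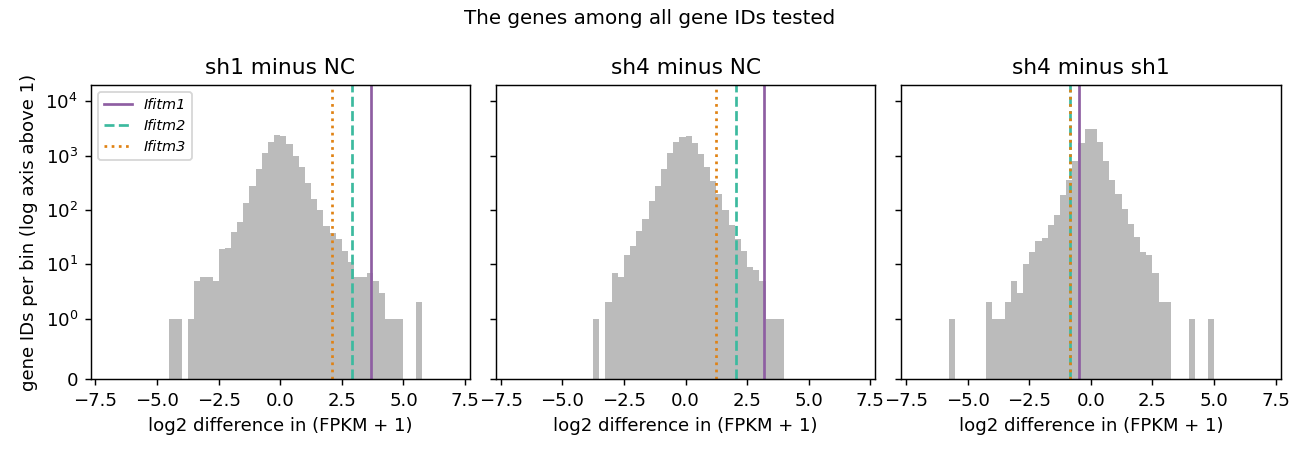
Number of gene IDs (log axis above 1) per bin of 0.25 in the log2(FPKM + 1) difference, for the 12755 IDs tested in each comparison; vertical lines mark the 3 genes. Against NC the genes lie in the upper tail, and between sh4 and sh1 they lie on the lower side at -0.49 to -0.86.

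Ratios taken within a library do not depend on how libraries were scaled to each other. The ratio of Ifitm2 to Ifitm3 in FPKM was 0.249 and 0.282 in the NC libraries. It was 0.461 and 0.479 in sh1, and 0.474 in both sh4 libraries. The ratios of sh1 and sh4 overlapped, and all of them lay above those of NC. No test was run on these ratios. The ratio of Ifitm1 to Ifitm3 was 0.0115 and 0.0065 in NC, 0.0465 and 0.0442 in sh1, and 0.0551 and 0.0609 in sh4. Here both sh4 libraries were highest and no groups overlapped. The NC values of this ratio rest on only 28 and 15 reads of Ifitm1. How often ratios between other IDs separate the groups in this way was not computed, for either ratio.

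**Figure D4:**
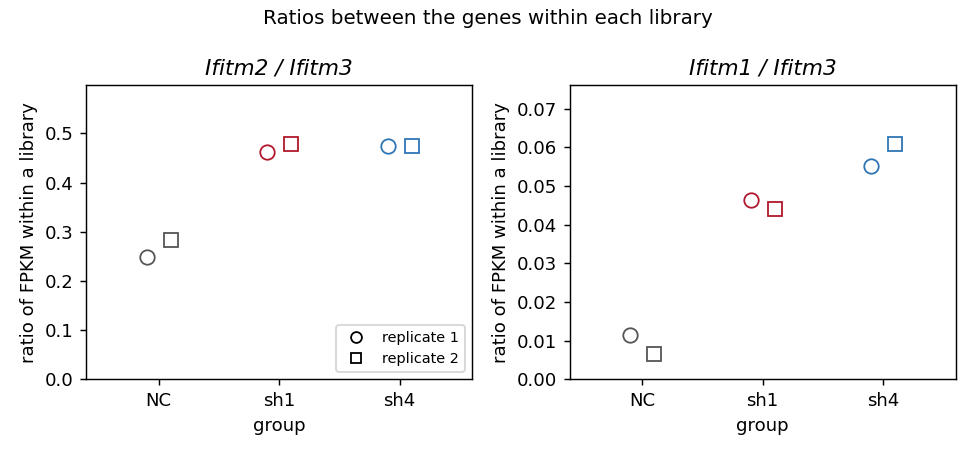
Ratio of Ifitm2 to Ifitm3 (left) and of Ifitm1 to Ifitm3 (right) in FPKM within each library, by group; circles and squares are replicates 1 and 2. The left ratio is 0.249 to 0.282 in NC and 0.461 to 0.479 in sh1 and sh4, and the right ratio is highest in sh4.

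Added up, the 3 genes came to 178 FPKM in both NC libraries, to 877 and 945 FPKM in sh1, and to 518 and 495 FPKM in sh4. Ifitm3 made up 79.3% and 77.6% of that sum in NC, 66.3% and 65.7% in sh1, and 65.4% and 65.1% in sh4. The part of Ifitm2 was 19.7% and 21.9% in NC, 30.6% and 31.4% in sh1, and 31.0% and 30.9% in sh4. Ifitm1 stayed under 1% of the sum in NC, at 0.909% and 0.502%. It took 3.08% and 2.90% in sh1 and 3.60% and 3.97% in sh4. Ifitm3 thus held the largest part of the 3 in every library, and a smaller one in sh1 and sh4 than in NC. Other genes of the family were not analysed here.

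The likeness of 2 genes was measured as the root-mean-square difference of their log2(FPKM + 1) values over the 6 libraries, each gene centred on its own mean. Among the members, Ifitm2 and Ifitm3 were nearest to each other at 0.38, followed by Ifitm1 and Ifitm2 at 0.50 and by Ifitm1 and Ifitm3 at 0.85. The members were not each other's nearest IDs. Of the 12752 other IDs tested, 9 were nearer to Ifitm1 than Ifitm2 was and 75 were nearer than Ifitm3 was. For Ifitm2, 36 IDs were nearer than Ifitm3 and 83 nearer than Ifitm1. For Ifitm3, 237 IDs were nearer than Ifitm2 and 5421 nearer than Ifitm1. The profiles were not scaled, so the measure counts the size of a change as well as its direction. A high count can therefore arise between genes that share the order of the groups, as Ifitm1 and Ifitm3 do. The nearest ID to Ifitm1 was ENSMUSG00000035385 at 0.22, with 3.90 and 4.13 FPKM in NC, 58.2 and 60.5 in sh1, and 35.0 and 34.0 in sh4. It was followed by ENSMUSG00000029371, also at 0.22, with 47.2 and 53.5 FPKM in NC, 765 and 809 in sh1, and 492 and 502 in sh4. These IDs were picked as the nearest to Ifitm1, so their sharing its order, highest in sh1 and lowest in NC, follows from that choice. Their levels lay above those of Ifitm1 in every library. The 6 libraries form 3 groups of 2, so this measure rests on few independent points.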

How the data were processed

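Per the file headers, the authors deposited FPKM values, with 1 library in each file and 1 value for each gene ID. HISAT2 2.0.5 and hg18 are named in the submitters' processing notes. Nothing in the sources used here gives the counting tool, the annotation release, the strand setting or any filter. Whole reads and a whole gene length rebuilt all 25747 IDs above 0 in any library to within 1e-06 FPKM plus 1e-07 of the value. The scaling constants found this way followed size factors by the median of ratios (largest departure 1.09e-09%), so a scaling between libraries is already part of the deposited FPKM.

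Testing covered IDs that reached 1 FPKM in 2 or more libraries (12755, including the 3 genes). Values were fitted as log2(FPKM + 1) with limma 3.58.1 in R 4.3.3, in 1 fit over all 6 libraries that left 3 residual degrees of freedom. Variances were moderated by limma's robust empirical Bayes step along the mean recovered reads. Benjamini-Hochberg adjustment ran over all IDs, at a threshold of 0.05. Recovery and fit were also run on simulated data. There far fewer IDs were changed than were called here, so that run does not show how the tests behave on these libraries.

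The genes, lists and tests were chosen with earlier results of these data known. The genes named are the 3 members and the 2 IDs nearest to Ifitm1. Lists of interferon-pathway genes and cell type markers were written by symbol and were not analysed here, since no ID matched a name table. No pair of replicates was a duplicate, with a mean chi-square per ID of 2.60 to 4.79 between replicates. Alternatives were another pseudocount, 2 other filters, 2 other scalings, voom, another variance trend, a replicate block and leaving out each library.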

Additional observations from a re-analysis of the deposited data

Results flagged for a closer look

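The difference from NC was not the same in sh1 and sh4 for any of the 3 genes, by limma's direct test of sh4 against sh1 with Benjamini-Hochberg adjustment over 12755 IDs. The log2 difference was -0.86 for Ifitm3 (adjusted p = 6.9e-09), -0.85 for Ifitm2 (adjusted p = 1.59e-07) and -0.49 for Ifitm1 (adjusted p = 0.0044). At that threshold 56.0% of all IDs were called and 26.4% were called lower in sh4. In each case 2 of 2 sh4 libraries lay below both sh1 libraries, a position that 38.2% of all IDs also took. Over the alternatives the adjusted p ran from 1.04e-12 to 0.00073 for Ifitm3, from 4.91e-11 to 0.0028 for Ifitm2 and from 0.00012 to 0.11 for Ifitm1. For Ifitm1 the standard error of 0.12 includes the spread of the NC replicates, which differed by 0.47 in log2(FPKM + 1), while the sh1 replicates differed by 0.02 and the sh4 replicates by 0.07. That standard error was 0.08 in the fit without NC replicate 1 and also in the fit without NC replicate 2. Whether Ifitm1 differs from Ifitm2 and Ifitm3 in its sh4 to sh1 change was not tested.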

How the results depend on the processing

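Between sh4 and sh1, 40 of 42 tests under 14 alternatives per gene kept direction and call. For Ifitm1 the call was lost with a pseudocount of 0.1 (-0.51, SE 0.22) and with no filter (-0.49, SE 0.16). The main fit gave -0.49 with an SE of 0.12, so the SE changed more than the difference. The cause of the larger SE was not tested. Against NC, where values were described only, the Ifitm1 difference was 4.38 in sh1 and 3.88 in sh4 when 0.1 FPKM was added before taking logs, and voom on whole reads gave 4.46 in sh1 and 3.95 in sh4. Scaling by total reads gave 2.03 for Ifitm3 in sh1, and bringing libraries to the mean FPKM sum gave 2.02. With the latter the median of all IDs between sh4 and sh1 was 0.10, and the differences of the 3 genes were -0.74 for Ifitm3, -0.72 for Ifitm2 and -0.37 for Ifitm1. Fits that each lacked 1 library gave 3.43 to 3.90 for Ifitm1 in sh1 and 2.94 to 3.41 in sh4, 2.82 to 2.97 and 1.98 to 2.12 for Ifitm2, and 2.05 to 2.14 and 1.20 to 1.27 for Ifitm3. Between sh4 and sh1 it gave -0.52 to -0.45 for Ifitm1, -0.92 to -0.77 for Ifitm2 and -0.91 to -0.81 for Ifitm3. Such fits assume that a group's remaining library varies as the other groups do. Adding the replicate block, the sh4 to sh1 differences were -0.49, -0.85 and -0.86 for Ifitm1, Ifitm2 and Ifitm3, no call changed, and 7345 IDs were called in place of 7139. Deviations of same-numbered libraries correlated at -0.01 between NC and sh1, 0.12 between NC and sh4 and -0.02 between sh1 and sh4. The threshold set for pairing was 0.1, which only NC with sh4 passed. The main fit did not take the numbers to pair the libraries. Depth limits Ifitm1 in NC, with 15 to 28 reads.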
